A study of Mus musculus with 24 samples.

Results

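Myosin light chains are the small subunits that wrap around the neck of the myosin motor, and 6 genes of this group were followed over 24 mouse hearts: the ventricular chains Myl2 (regulatory) and Myl3 (essential), the atrial chains Myl7 (regulatory) and Myl4 (essential), the smooth muscle regulatory chain Myl9, and Mylk3, the cardiac kinase that phosphorylates the regulatory chain. They were taken by symbol from the 46078 genes of the deposited count table, and all 6 passed the filter on low counts that left 15456 genes. They were picked with earlier results on injured hearts in view, so their differences between injured and uninjured hearts, and those of the Myl2 to Myl3 ratio, are given as a description with no test.

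The hearts came from male C57BL/6 mice aged 10 weeks and were taken at day 5, in 4 groups of 6 libraries. WT_PBS hearts were wild type, had no diphtheria toxin and received the vehicle PBS, and WT_PYR hearts were wild type without toxin and received pyridostigmine, which blocks the enzymes that break down acetylcholine. DTR_PBS and DTR_PYR hearts were labelled DTR (diphtheria toxin receptor, which lets the toxin into mouse cells), carried an injury made with that toxin, and received PBS or pyridostigmine. Every library held polyadenylated RNA of the ventricular apex, and each had its own animal tag and was treated as 1 animal. The sources used here do not give the allele behind DTR, the promoter that drives it or the cells that carry it. Cre inserted at the Myl2 locus is a widely used driver for ventricular myocytes, and whether these mice carried one was not stated either. Genotype and toxin moved together, so their parts cannot be told apart, and "injured" below stands for both.

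Each myosin heavy chain carries an essential chain, which stiffens the lever arm, and a regulatory chain, whose phosphorylation tunes how readily the heads reach actin. In the ventricle that pair is Myl3 and Myl2, and in the atrium it is Myl4 and Myl7. Mylk3 keeps Myl2 phosphorylated in the beating heart, while in smooth muscle and nonmuscle cells other kinases act on Myl9 and its relatives and the myosin phosphatase reverses them.

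Total counts ran from 1.88 to 37.84 M per library, and mitochondrially encoded genes took 4.59% to 25.6% of them. Libraries DTR_PYR 4, 5 and 6 stood apart from the other DTR libraries. Hbegf, whose human and monkey versions are the toxin's receptor, was at 19.3, 23.3 and 25.8 CPM (reads scaled to library size) in them, inside the 18.3 to 26.8 CPM of the 12 WT libraries, while the other 9 DTR libraries held 105 to 172 CPM. The heart stress gene Nppb was at 332, 413 and 640 CPM in the same 3 libraries, against 141 to 380 CPM in WT and 2181 to 3426 CPM in the other DTR libraries. These 3 libraries keep their label below, and results that they move by a wide margin are given with and without them. The letter that ends each animal tag, U or V, fell 4 to 2 in each WT group and 2 to 4 in each DTR group, and its meaning is not given.

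Start-region sequences are shown for the 4 members with a printable window, 3 of which hold a CArG box. They come from RefSeq on GRCm38.p6 and cover up to 250 bases before an annotated start, trimmed of exon bases. Capitals mark the CArG box, the site read by serum response factor in muscle genes, and 2 short motifs. The first of these is CATTCC, called M-CAT and bound by TEAD factors. The second is AGATAA, bound by GATA factors. All were searched on both strands.
Myl2: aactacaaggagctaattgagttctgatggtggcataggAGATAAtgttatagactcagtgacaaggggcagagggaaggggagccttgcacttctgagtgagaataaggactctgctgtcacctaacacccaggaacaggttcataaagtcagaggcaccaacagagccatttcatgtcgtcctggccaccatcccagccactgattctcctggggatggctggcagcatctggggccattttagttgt
Myl3: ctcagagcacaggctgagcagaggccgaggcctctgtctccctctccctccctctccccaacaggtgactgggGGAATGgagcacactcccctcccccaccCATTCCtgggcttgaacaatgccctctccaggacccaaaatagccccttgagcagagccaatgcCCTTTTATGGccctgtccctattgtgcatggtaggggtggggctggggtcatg
Myl7: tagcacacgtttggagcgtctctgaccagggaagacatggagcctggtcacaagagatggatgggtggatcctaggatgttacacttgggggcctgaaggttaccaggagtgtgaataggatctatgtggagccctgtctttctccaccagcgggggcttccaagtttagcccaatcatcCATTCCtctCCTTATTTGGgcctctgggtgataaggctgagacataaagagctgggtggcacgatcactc
Myl9: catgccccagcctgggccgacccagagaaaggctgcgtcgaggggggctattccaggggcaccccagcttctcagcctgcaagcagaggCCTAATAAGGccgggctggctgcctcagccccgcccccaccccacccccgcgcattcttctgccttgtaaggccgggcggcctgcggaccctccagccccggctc
The Myl2 window, chr5:122092474-122092723, lies before a RefSeq start 8227 bases upstream of the counted gene, so it does not show the sequence just before that gene. It held 1 AGATAA and no CArG box. The Myl3 window, chr9:110763428-110763645, lies before a RefSeq start that is 21817 bases inside the counted gene. It held a CArG box beginning at position -85 from that start and 2 M-CAT motifs. The Myl7 window, chr11:5898783-5899032 on the minus strand, held a CArG box at -61 and 1 M-CAT motif. The Myl9 window, chr2:156775214-156775407, held a CArG box at -161. Over all 32851 windows, 1.47% held a CArG box, 12.6% M-CAT and 9.99% AGATAA. A CArG box stood in windows of 3 of the 6 members, among them chains with very different levels and responses, so the match describes the sequence and says nothing of use in these hearts. A second Myl2 window and those of Myl4 and Mylk3 gave no stretch free of another transcript or of exon bases.

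Myl2, the ventricular regulatory light chain, was the member that differed most between injured and uninjured hearts, and every injured heart was below every uninjured one. The gene, ENSMUSG00000013936, spans chr5:122100951-122113472 on the plus strand of GRCm38. Myl2 held 7019 to 9531 CPM in WT_PBS, with a median of 7583 CPM, and 6854 to 9610 CPM in WT_PYR, with a median of 7866 CPM. In DTR_PBS it held 1072, 1388, 2529, 1774, 2808 and 2992 CPM in replicates 1 to 6, and in DTR_PYR 2615, 1788, 3024, 3333, 3214 and 2795 CPM. DTR_PBS 1 and 2 were the lowest hearts, and the highest injured heart was under 0.5 of the lowest uninjured one.

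The means were 7851 ± 901 CPM in WT_PBS (SD, n = 6) and 2094 ± 794 CPM in DTR_PBS (SD, n = 6), a log2 difference of -1.91 ± 0.23 (SE), or 3.75-fold lower. Under pyridostigmine they were 8038 ± 1047 CPM in WT_PYR and 2795 ± 559 CPM in DTR_PYR (SD, n = 6 each), a difference of -1.52 ± 0.22 (SE), or 2.88-fold lower. As shares of all counts, Myl2 took 0.703% ± 0.085 in WT_PBS and 0.233% ± 0.067 in DTR_PBS (SD, n = 6 each). Within tags ending in U the log2 difference was -2.55 with PBS and -1.88 with pyridostigmine, and within tags ending in V it was -1.65 and -1.37. In bulk tissue, fewer ventricular myocytes and less Myl2 RNA per myocyte cannot be told apart. The summed level of 6 ventricular myocyte markers (Myh6, Tnnt2, Tnni3, Actc1, Irx4, Mybpc3) ran from 58470 to 66990 CPM in WT_PBS, 63310 to 71190 CPM in WT_PYR, 16130 to 49400 CPM in DTR_PBS and 27280 to 60960 CPM in DTR_PYR, none of them at 0 in any library. The 4 macrophage markers summed to 73.5 to 113 CPM in WT_PBS and 176 to 479 CPM in DTR_PBS, and the part of either list in the Myl2 values was not tested.

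Myl3, the ventricular essential light chain and partner of Myl2 on the same myosin, was lower in injured hearts by a smaller factor. It spans chr9:110741861-110769798 on the plus strand (ENSMUSG00000059741), and 95 of its exonic bases overlap Pth1r on the other strand. Myl3 held 5681 to 8249 CPM in WT_PBS, with a median of 6675 CPM, and 6164 to 8981 CPM in WT_PYR, with a median of 6455 CPM. In DTR_PBS it held 1810, 2323, 4428, 3091, 5037 and 5435 CPM, and in DTR_PYR 4341, 2886, 4833, 6053, 5906 and 5068 CPM. Each DTR group lay below its own WT group, but DTR_PYR 4 and 5 lay above the lowest WT_PBS heart.

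For Myl3 the log2 difference was -0.88 ± 0.24 (SE) with PBS, 1.84-fold lower, and -0.51 ± 0.24 (SE) with pyridostigmine, 1.43-fold lower. Without DTR_PYR 4, 5 and 6 the Myl3 difference with pyridostigmine was -0.78 and that of Myl2 was -1.70. Within U tags the Myl3 difference was -1.55 with PBS and -1.02 with pyridostigmine, and within V tags it was -0.63 and -0.20. Myl2 and Myl3 were the 2 members of 6 whose libraries did not overlap between injured and uninjured hearts in either contrast, both lower. Over all 15456 genes, 11% were lower without overlap with PBS and 3.18% with pyridostigmine, and since the members were picked on these contrasts nothing is read from their count. With all 12 DTR libraries set against all 12 WT libraries, a comparison added after the data were seen, Myl2 alone of the members was lower without overlap, as were 0.699% of genes.

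**Figure D1:**
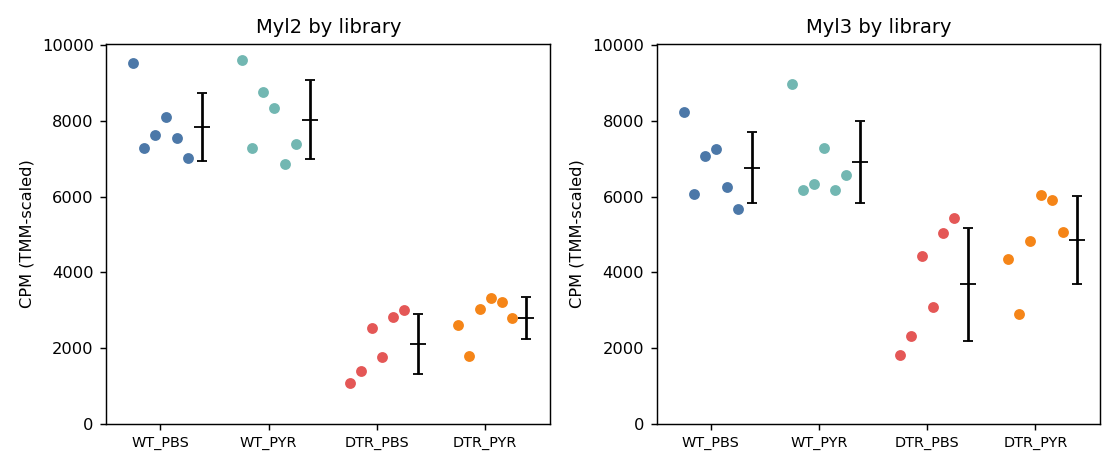
Myl2 (left) and Myl3 (right) in TMM-scaled CPM, 1 point per library in accession order within each group of 6, with a black mark and bar for the mean and SD. All 12 DTR points for Myl2 lie between 1072 and 3333 CPM, below the WT points at 6854 to 9610 CPM, while the DTR points for Myl3 reach 6053 CPM.

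The balance of the 2 ventricular chains differed between injured and uninjured hearts by about the same factor with PBS and with pyridostigmine. Scaled to exonic length (1.95 kb for Myl2 and 2.04 kb for Myl3), the Myl2 to Myl3 ratio was 1.211, 1.257, 1.129, 1.17, 1.261 and 1.295 in WT_PBS replicates 1 to 6. It was 1.122, 1.237, 1.449, 1.201, 1.162 and 1.178 in WT_PYR. The DTR_PBS ratios were 0.621, 0.626, 0.599, 0.602, 0.584 and 0.577, and the DTR_PYR ratios were 0.632, 0.65, 0.656, 0.577, 0.57 and 0.578. The 12 WT hearts thus ran from 1.122 to 1.449 and the 12 DTR hearts from 0.57 to 0.656, with no value between.

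The mean ratio was 1.22 ± 0.063 in WT_PBS and 0.601 ± 0.019 in DTR_PBS (SD, n = 6 each), a log2 difference of -1.02 ± 0.04 (SE). With pyridostigmine it was 1.23 ± 0.12 in WT_PYR and 0.61 ± 0.039 in DTR_PYR (SD, n = 6 each), a difference of -1.002 ± 0.065 (SE). The ratio varied less than either gene: over DTR_PBS the coefficient of variation was 3.22% for the ratio, 37.9% for Myl2 and 40.5% for Myl3. Of all 50-base stretches of their transcripts, 0.864% for Myl2 and 2.46% for Myl3 also occur in another gene. Within V tags the difference with pyridostigmine was -1.17 and within U tags -0.86.

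**Figure D2:**
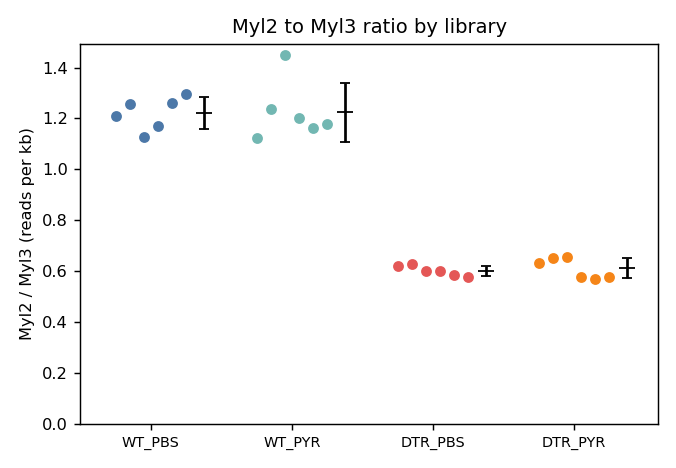
Ratio of Myl2 to Myl3 reads per kilobase in each of 24 libraries, with group mean and SD in black. The 12 WT libraries lie between 1.122 and 1.449 and the 12 DTR libraries between 0.57 and 0.656.

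Libraries DTR_PYR 4, 5 and 6 held ratios of 0.577, 0.57 and 0.578, among the lowest of all, although their Nppb and Hbegf were near or inside the WT range. Their Myl2, at 3333, 3214 and 2795 CPM, was inside the DTR range too, with replicates 4 and 5 the highest of the 12. Myl2, unlike Nppb and Hbegf, therefore kept these 3 libraries on the DTR side. Their Mylk3 was at 682, 657 and 714 CPM, inside the WT range of 374 to 867 CPM. These were the 3 highest Mylk3 values of the 12 DTR hearts, with DTR_PBS 5 next at 644 CPM. Lying inside the WT range was not particular to them, since DTR_PBS 3, 5 and 6, at 377, 644 and 470 CPM, were inside it too. So were DTR_PYR 1 and 3, at 459 and 557 CPM. The low end of the range was WT_PYR 1, and the lowest WT_PBS heart held 539 CPM.

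**Figure D3:**
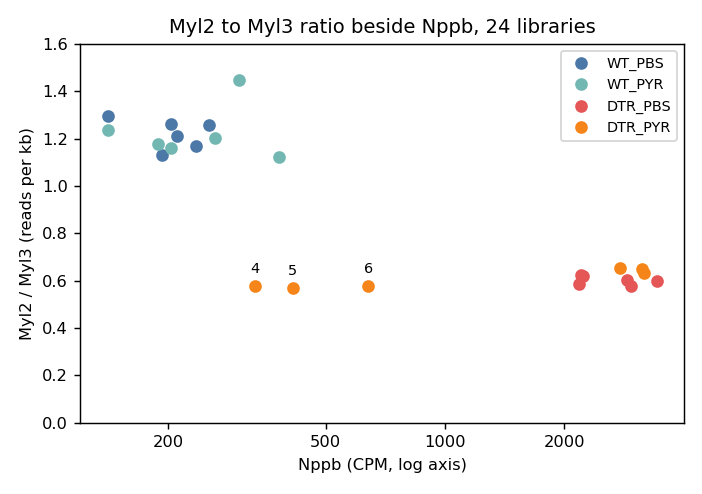
Myl2 to Myl3 ratio per kilobase (vertical axis) against Nppb in CPM (horizontal log axis) for 24 libraries, coloured by group. The points numbered 4, 5 and 6 are DTR_PYR replicates, with Nppb at 332 to 640 CPM and ratios of 0.57 to 0.578.

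Myl2 was also low against most other ventricular myocyte genes, a comparison added after the data were seen. The ratio of Myl2 reads to Tnnt2 reads, Tnnt2 being cardiac troponin T, was 0.857 to 1.646 in the 12 WT hearts and 0.307 to 0.439 in the 12 DTR hearts. Against Tnni3, cardiac troponin I, it was 1.185 to 1.582 in WT and 0.378 to 0.789 in DTR. Against Actc1, cardiac actin, it was 0.548 to 0.828 and 0.173 to 0.408, and against Mybpc3, a thick filament binding protein, 1.12 to 1.613 and 0.571 to 0.959. These 4 ratios did not overlap between WT and DTR hearts. Against Myh6, the main heavy chain of the mouse ventricle, they did overlap, at 0.197 to 0.367 in WT and 0.109 to 0.25 in DTR, as they did against the ventricular transcription factor Irx4. Myl3 reads overlapped between WT and DTR hearts against all 6 of these genes, for example 0.726 to 1.538 and 0.556 to 0.804 against Tnnt2. The Myl2 difference was thus not shared in size by its partner or by most of these myocyte genes.

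Mylk3, the cardiac light chain kinase, was lower in some injured hearts and near the uninjured level in others. It spans chr8:85324303-85386345 on the minus strand (ENSMUSG00000031698). Mylk3 held 539 to 848 CPM in WT_PBS, with a median of 670.0 CPM, and 374 to 867 CPM in WT_PYR, with a median of 641 CPM. In DTR_PBS it held 138, 180, 377, 239.8, 644 and 470 CPM, and in DTR_PYR 459, 161, 557, 682, 657 and 714 CPM. DTR_PBS 1, 2 and 4 and DTR_PYR 2 were the lowest, and both DTR groups overlapped their WT groups.

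For Mylk3 the log2 difference was -0.99 ± 0.32 (SE) with PBS and -0.28 ± 0.32 (SE) with pyridostigmine, and the latter was -0.74 without DTR_PYR 4, 5 and 6. The level of Mylk3 per kilobase relative to Myl3 was 0.049 ± 0.013 in WT_PBS, 0.047 ± 0.015 in WT_PYR, 0.042 ± 0.0094 in DTR_PBS and 0.051 ± 0.013 in DTR_PYR (SD, n = 6 each). Those 4 groups lay within 1 SD of each other. Relative to Myl2, the kinase's own substrate, it was 0.04 ± 0.0087, 0.038 ± 0.01, 0.071 ± 0.017 and 0.085 ± 0.025 in the same order. Mean kinase RNA per unit of substrate RNA was thus higher in both DTR groups, which restates the lower Myl2. DTR_PYR 2, at 0.041, lay inside the WT range of 0.0177 to 0.055.

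**Figure D4:**
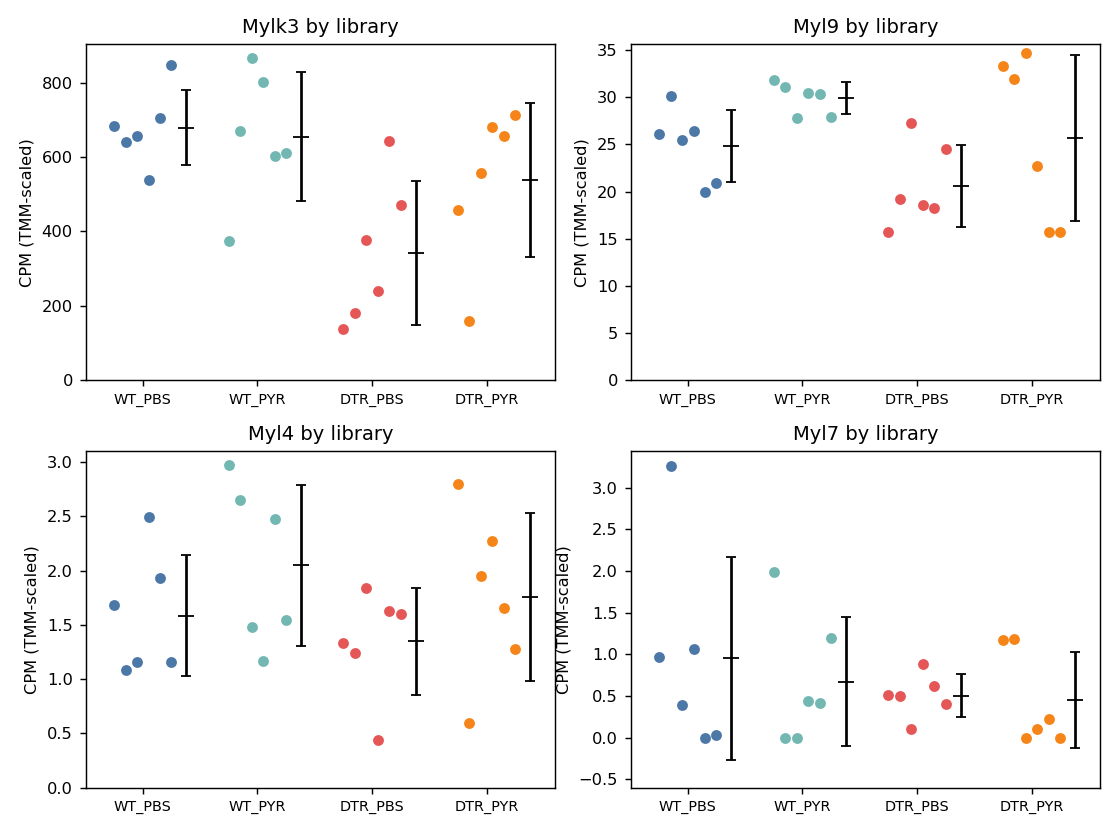
Mylk3, Myl9, Myl4 and Myl7 in TMM-scaled CPM, 1 point per library, with group mean and SD in black, each panel on its own linear axis. The DTR points of each gene overlap the WT points, and Myl4 and Myl7 stay under 3.3 CPM.

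Myl9, which marks smooth muscle and pericytes, overlapped between injured and uninjured hearts. The gene spans chr2:156775420-156781658 on the plus strand (ENSMUSG00000067818). Myl9 held 19.9 to 30.2 CPM in WT_PBS (median 25.8) and 27.8 to 31.8 CPM in WT_PYR (median 30.4). It held 15.7, 19.2, 27.2, 18.6, 18.3 and 24.6 CPM in DTR_PBS and 33.3, 32.0, 34.7, 22.7, 15.7 and 15.7 CPM in DTR_PYR. DTR_PYR split: replicates 1 to 3 were above every WT heart and 5 and 6 were as low as the lowest DTR_PBS heart.

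The log2 difference of Myl9 was -0.27 ± 0.19 (SE) with PBS and -0.24 ± 0.19 (SE) with pyridostigmine. Its sign was not stable: total-count scaling gave 0.07 with PBS, and leaving out DTR_PYR 4, 5 and 6 gave 0.15 with pyridostigmine. Among the 6 smooth muscle and pericyte markers, 3 split DTR_PYR as Myl9 did. Acta2 was at 229, 271 and 313 CPM in replicates 1 to 3 and at 82.8, 84.2 and 68.7 CPM in replicates 4 to 6, Tagln at 38.4, 61.0 and 39.4 CPM and then 14.7, 15.3 and 12.97 CPM, and Cnn1 at 6.62, 8.88 and 3.12 CPM and then 1.84, 1.07 and 0.641 CPM. Rgs5 lay the other way, at 187, 109 and 154 CPM and then 387, 463 and 190.1 CPM, and in Myh11 and Kcnj8 the 2 sets of replicates overlapped. The sum of the 6 ran from 312 to 873 CPM in WT_PBS and 395 to 573 CPM in DTR_PBS. Of its parts Acta2 was at 83.1 ± 9.8 CPM in WT_PBS and 218 ± 90 CPM in DTR_PBS, while Kcnj8 was at 50.9 ± 5.4 and 24 ± 6.4 CPM (SD, n = 6 each). Tagln, at 20.05 and 31.67 CPM, and Cnn1, at 1.326 and 2.945 CPM, averaged higher in DTR_PBS like Acta2. Myh11, at 35.53 and 19.31 CPM, and Rgs5, at 313.2 and 192.2 CPM, averaged lower like Kcnj8. The markers that split DTR_PYR as Myl9 did thus averaged higher in DTR_PBS, while Myl9 averaged lower. Their part in the Myl9 values was not tested.

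Myl4 and Myl7, the atrial pair, were close to the limit of detection in this ventricular tissue. Myl4 (chr11:104550663-104595753, ENSMUSG00000061086) had 506 reads over the 24 libraries, at 0.443 to 2.97 CPM, and Myl7 (chr11:5896637-5898782, ENSMUSG00000020469) had 172 reads, at 0 to 3.26 CPM, with 5 libraries at 0. The mean of Myl4 was 1.58 ± 0.56 CPM in WT_PBS, 2.05 ± 0.74 in WT_PYR, 1.35 ± 0.49 in DTR_PBS and 1.76 ± 0.77 in DTR_PYR (SD, n = 6 each). For Myl7 the means were 0.953 ± 1.2, 0.672 ± 0.78, 0.505 ± 0.26 and 0.449 ± 0.57 CPM in the same order, so the spread was about as large as the level. A switch toward the atrial chains was not detectable at this depth: the log2 difference was -0.18 ± 0.34 (SE) with PBS and -0.20 ± 0.34 (SE) with pyridostigmine for Myl4, and -0.80 ± 0.90 (SE) and -0.81 ± 0.95 (SE) for Myl7. These signs were not stable, since total-count scaling gave 0.17 for Myl4 with PBS and leaving out DTR_PYR 4, 5 and 6 gave 0.27 for Myl7 with pyridostigmine. Of 6 atrial markers, Sln had 11 reads in all and was at 0 in 20 libraries, Bmp10 had 1 read and Mybphl 58 reads. The other 3 averaged above Myl4 in both PBS groups, while in WT_PYR Dkk3, at 1.73 CPM, averaged below it. With PBS, Kcnj3 was at 27.8 ± 15 CPM in WT and 6.09 ± 2.8 CPM in DTR hearts, Dkk3 at 2.05 ± 0.87 and 5.51 ± 2.7 CPM, and Nr2f1 at 3.86 ± 1.1 and 4.21 ± 1.3 CPM (SD, n = 6). The 6 atrial markers summed to 19.8 to 56.7 CPM in WT_PBS and 14.1 to 17.3 CPM in DTR_PBS. Sln and Bmp10, the most atrial of these genes, were thus at or near 0 in tissue labelled ventricle.

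Per kilobase, the ventricular pair stood far above the kinase, and the kinase above the smooth muscle and atrial chains. In WT_PBS Myl2 led at 4026 ± 462 CPM per kb, followed by Myl3 at 3312 ± 462, Mylk3 at 158 ± 24 and Myl9 at 21.4 ± 3.3, with Myl7 at 1.61 ± 2.1 and Myl4 at 0.342 ± 0.12 (SD, n = 6 each). Myl7 and Myl4 did not differ beyond their spread. In DTR_PBS Myl3, at 1804 ± 731 CPM per kb, stood above Myl2, at 1074 ± 407 (SD, n = 6 each), in all 6 hearts.

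Whether pyridostigmine changed these genes was tested within injured and within uninjured hearts, and none of the 6 members passed an adjusted p of 0.05 in edgeR's quasi-likelihood test. No gene of 15456 did in either contrast or in their interaction, a background of 0.0%, while 2991 genes in injured hearts, 481 in uninjured hearts and 1231 in the interaction had an unadjusted p under 0.05. DESeq2 called 239, 1 and 9 genes in the same order, and limma voom called 1765 in injured hearts.

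Within injured hearts Myl2 was 0.42 ± 0.22 (SE) higher on the log2 scale with pyridostigmine, with a 95% interval of -0.03 to 0.87 and an adjusted p of 0.29 in edgeR. Myl3 was 0.39 ± 0.24 (SE) higher, with an interval of -0.09 to 0.88 and an edgeR adjusted p of 0.351. Neither passed the test, and without DTR_PYR 4, 5 and 6 the differences were 0.24 for Myl2 and 0.12 for Myl3, with edgeR adjusted p values of 0.854 and 0.922. Mylk3 had the widest difference of the well-measured members, 0.66 ± 0.32 (SE), with an interval of 0.01 to 1.31, an unadjusted p of 0.0482 and an adjusted p of 0.254 in edgeR. The outcome for Mylk3 rested on 1 library. Without DTR_PYR 2, the heart with the lowest Mylk3 of its group, the difference was 0.85 with an edgeR adjusted p of 0.0422, and 2404 genes were called in place of 0. With any other single library left out it did not pass, up to an adjusted p of 0.519, and over 9 other settings the adjusted p ran from 0.149 to 0.908. Without DTR_PYR 4, 5 and 6 the Mylk3 difference was 0.20. Myl9, at 0.30 and at 0.69 without those 3 libraries, had edgeR adjusted p values of 0.377 and 0.819, Myl4, at 0.35, one of 0.592, and Myl7, at -0.21 and at 0.88 without those 3, ones of 0.925 and 0.873.

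Within uninjured hearts the log2 differences with pyridostigmine were 0.03 for Myl2, 0.03 for Myl3, 0.37 for Myl4, -0.20 for Myl7, 0.27 for Myl9 and -0.05 for Mylk3, each with an adjusted p of 0.998 in edgeR. The 95% interval was -0.41 to 0.48 for Myl2 and -0.70 to 0.59 for Mylk3. The interaction, which tests whether the drug differences differed between injured and uninjured hearts, was 0.38 ± 0.31 (SE) for Myl2 with an adjusted p of 0.728 and 0.71 ± 0.45 (SE) for Mylk3 with an adjusted p of 0.678 in edgeR. Without DTR_PYR 4, 5 and 6 the interaction was 0.21 for Myl2, 0.25 for Mylk3 and 0.42 for Myl9, each with an edgeR adjusted p of 1.0.

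The Myl2 to Myl3 ratio was nearly the same with and without the drug. Its log2 difference was 0.02 ± 0.04 (SE) in injured hearts (n = 6 each, exact two-sided permutation p = 0.647, adjusted over the 2 drug contrasts 0.987). In uninjured hearts it was 0.0016 ± 0.061 (SE), with an exact permutation p of 0.987 and the same adjusted value. Leaving out DTR_PYR 4, 5 and 6 left replicates 1 to 3, at 0.632, 0.65 and 0.656, all above every DTR_PBS heart, and gave a difference of 0.10. The unadjusted exact permutation p was 0.0238, the smallest that 3 against 6 libraries can give. The drug difference in the ratio therefore depended on those 3 libraries.

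The other genes that make up or act on the light chain system were counted from a list of 36, of which 33 passed the filter. The list was written with earlier results of these hearts known. With PBS, 17 of the 33 passed an adjusted p of 0.05 in edgeR, 8 higher and 9 lower, beside 42.9% of all genes (21.3% higher and 21.6% lower), and the list's median log2 difference was 0.21 beside 0.01 over all genes. Scaling by total counts moved the median of all genes to 0.39 and the split to 13 higher and 7 lower. With pyridostigmine 1 of the 33 passed, higher, beside 12.2% of all genes (8.06% higher), with a list median of 0.07 beside 0.04. Without DTR_PYR 4, 5 and 6 it was 13 of the 33, beside 5027 of all 15456 genes. With 1 library left out it ran from 1 to 9, highest without DTR_PYR 4, where 2699 of all genes passed. None passed in either drug contrast or the interaction, although 12 passed between the injured groups without DTR_PYR 2, beside 2404 of all genes.

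Among the 5 other light chains tested, 2 were called with PBS, both higher, beside 42.9% of all genes called in either direction and 21.3% called higher. With so few genes nothing is read from this count. Both serve nonmuscle and smooth muscle myosin. Myl6, the essential chain of those myosins, rose from 57.9 to 118 CPM, a log2 difference of 1.03 ± 0.23 (SE) with an edgeR adjusted p of 0.000889. Myl12a, a nonmuscle regulatory chain and close relative of Myl9, rose from 589 to 857 CPM, by 0.54 ± 0.17 (SE) with an edgeR adjusted p of 0.0122. Its near copy Myl12b, at 0.42 with an adjusted p of 0.0599, did not pass, and reads of the pair may be split between them. With pyridostigmine the differences of Myl6 and Myl12a were 0.63 and 0.42, and neither passed. Beside them with PBS, the 4 fibroblast markers had a median sum of 542 CPM in WT_PBS and 1845 CPM in DTR_PBS. Of these, Col1a1 averaged 204 and 1366 CPM and Pdgfra 38.6 and 79.6 CPM. Dcn, at 294.5 and 297.5 CPM, and Tcf21, at 10.1 and 9.73 CPM, were nearly level, so the list did not move as a whole. The 4 macrophage markers had median sums of 87.8 and 303 CPM, and the part of either list was not tested.

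Of 9 other kinases of the light chain, Mylk4, a striated muscle relative of Mylk3, fell from 164 to 63.0 CPM with PBS, a log2 difference of -1.39 ± 0.33 (SE) with an edgeR adjusted p of 0.00148. With pyridostigmine Mylk4 was at 101.8 CPM in DTR_PYR and 117.5 CPM in WT_PYR, a difference of -0.20 ± 0.32 (SE). WT_PYR itself was -0.48 ± 0.32 (SE) from WT_PBS, with an edgeR adjusted p of 0.998. The interaction of 1.19 ± 0.46 (SE), which includes that difference, had an adjusted p of 0.57 in edgeR. Cit, citron kinase, which acts at cell division, rose from 4.41 to 9.41 CPM, by 1.16 with an adjusted p of 0.0117 in edgeR. Cdc42bpb fell by 0.31 with an adjusted p of 0.0376 in edgeR, a call lost under 4 of 9 other settings, turned to 0.03 by total-count scaling, and lost without any 1 of WT_PBS 2, 3 or 4 or DTR_PBS 1 or 2. The smooth muscle kinase Mylk, at -0.26 with an adjusted p of 0.109, did not pass.

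Calmodulin is the calcium sensor that switches on these kinases. Its gene Calm2 rose with PBS by 0.59 ± 0.20 (SE) with an edgeR adjusted p of 0.0203, and its call was lost without WT_PBS 3, WT_PBS 4, DTR_PBS 1 or DTR_PBS 2 taken singly, where adjusted p values ran from 0.0514 to 0.0834, against 0.00947 as the lowest with another library left out. Calm3, at -0.17 with an adjusted p of 0.252, did not pass.

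Of 7 genes of the myosin phosphatase and its inhibitors, 2 rose and 2 fell with PBS, beside 42.9% of all genes called (21.3% higher and 21.6% lower). Ppp1r12a, the myosin-targeting subunit of the phosphatase, rose from 33.1 to 123 CPM, by 1.90 ± 0.27 (SE) with an edgeR adjusted p of 2.22e-05. It was also the 1 list gene called with pyridostigmine, at 75.1 CPM against 35.0 CPM, a difference of 1.10 ± 0.26 (SE) with an edgeR adjusted p of 0.00962. Ppp1r12b, the targeting subunit found in heart muscle, fell from 428 to 286 CPM, by 0.58 with an adjusted p of 0.0217 in edgeR, a call lost under total-count scaling (-0.26, adjusted p 0.191) and without WT_PBS 1, DTR_PBS 1 or DTR_PBS 2 taken singly, where the adjusted p ran up to 0.0625. The inhibitor Ppp1r14c fell from 90.0 to 38.4 CPM, with a log2 difference of -1.22 and an adjusted p of 0.000714 in edgeR, and Ppp1r14b rose by 0.78 with an adjusted p of 0.0153.

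Among 9 heavy chains and binding partners tested, 5 fell and 1 rose with PBS, beside 21.6% of all genes called lower and 21.3% higher. The list was written with earlier results known, so nothing is read from this count. Myh7b fell from 132 to 21.9 CPM, a log2 difference of -2.61 ± 0.51 (SE) with an edgeR adjusted p of 0.000273. Myh14, a nonmuscle heavy chain, fell from 268 to 70.3 CPM, by 1.93 with an adjusted p of 0.000198 in edgeR. Mybpc3 fell from 5908 to 2570 CPM, by 1.20 with an adjusted p of 0.000639 in edgeR. Myh6 and Myh11 also fell, and Myh9, the main heavy chain of many nonmuscle cells, rose by 1.07 with an adjusted p of 0.000872 in edgeR.

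**Figure D5:**
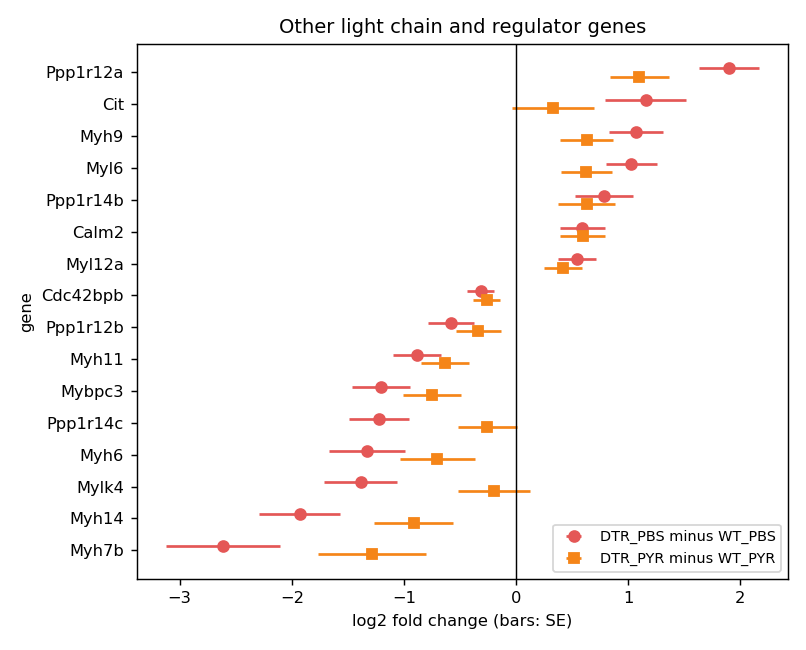
Log2 fold changes of 16 of the 17 list genes called in DTR_PBS minus WT_PBS (red circles), beside the same genes in DTR_PYR minus WT_PYR (orange squares), with bars for SE. Ppp1r12a is highest, at 1.90 and 1.10, and Myh7b lowest, at -2.61 and -1.28, and all 16 genes shown have the same sign in both.

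The genes whose profile over the 24 libraries was nearest to each member were found by the root mean square distance between log2 CPM profiles scaled to mean 0 and SD 1, over 9829 genes of at least 5 CPM, where the median distance was 1.37 for Myl2. For Myl2 they were Dis3l at 0.267, Aldh4a1 at 0.269 and Aplp2 at 0.283. For Myl3 they were nearer, with Sdhb, a subunit of the mitochondrial respiratory chain, at 0.158 and Fkbp4 at 0.17. For Mylk3 they were Pptc7 at 0.284, Fgf1 at 0.3 and Tnnt2 at 0.314. Myl2 and Myl3 lay 0.418 apart, farther than the nearest genes of either, Myl3 and Mylk3 0.557 apart, and Myl2 and Mylk3 0.69 apart. For the low genes no close profile was found: the nearest to Myl9 was Alpl at 0.623, to Myl4 Nhlrc1 at 0.731 and to Myl7 Msln at 0.638. These distances describe 24 libraries that share the injury difference and the same depths.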

How the data were processed

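The authors deposited raw read counts per gene, unfiltered and as whole numbers, and those counts were used here. A filtered version served as an alternative gene set, and a depth-normalised table was not used. GRCm38, HTSeq, edgeR, DESeq, TopHat2 2.1.1, TopHat and Bowtie2 are listed in the submitters' processing notes. Their roles and the gene annotation used are not given in the sources used. Per the labels' protocols, the libraries were single-end and not strand-specific, so reads of overlapping genes on opposite strands cannot be told apart.

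The filter required more than 0.5 CPM in 6 or more libraries and left 15456 genes. Counts were scaled by TMM and fitted in edgeR (glmQLFit, then glmQLFTest) over all 24 libraries with a term per group, 4 in all. Values are two-sided, adjusted by Benjamini-Hochberg over all genes tested, with calls under 0.05. CPM are TMM-scaled, and log2 CPM used a prior count of 2. Exonic lengths came from GENCODE vM21. The Myl2 to Myl3 ratio was compared by exact permutation of 6 against 6 libraries (924 arrangements, smallest p 0.002165). The fit was tested on simulated data. Software was R 4.3.3, edgeR 4.0.16, limma 3.58.1, DESeq2 1.42.0 and SciPy 1.17.1.

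The members, the list of 36 other light chain, kinase, calmodulin, phosphatase and heavy chain genes, and the tests were chosen with earlier results of these data known. The genes named are the 6 members, up to 3 called genes per part of that list and contrast by p, and the 3 nearest profiles of each member; some results this rule gives are not reported here. Myh6, Myh11, Ppp1r12b and genes that missed the test were named after their values were seen. Marker lists covered ventricular, atrial and conduction myocytes, smooth muscle, fibroblasts, endothelium, macrophages and skeletal muscle. Summed conduction markers ran from 12.5 to 25.9 CPM in WT_PBS and 2.06 to 9.88 CPM in DTR_PBS. Fibroblast sums were 514 to 611 CPM and 1203 to 2274 CPM, endothelial sums 784 to 1082 CPM and 449 to 613 CPM, and skeletal muscle sums 2063 to 3585 CPM and 490.1 to 2144 CPM, in the same order. The skeletal muscle sums were mostly Ckm, with means of 2751 CPM in WT_PBS and 1079 CPM in DTR_PBS. Acta1 went the other way, at 221 and 395 CPM. Tnnt3 averaged 0.411 and 1.185 CPM, Mylpf 0.392 and 0.382 CPM and Myh4 0.341 and 0.167 CPM, close to the limit of detection.

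Alternatives were other scalings, filters and tests, the 2 groups alone, the tag letter as a term, and leaving out libraries.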

Additional observations from a re-analysis of the deposited data

Results flagged for a closer look

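In 36 groups of 6 libraries, 5 held a library far from the rest of its group. Chance alone does this in about 1 in 20 groups of independent, normally distributed values. The groups here reuse the same genes in ratios, so they are not independent and the rate is only a rough guide. The Myl7 to Myl4 ratio, which rests on few reads, was not among them. Myl7 was at 3.26 CPM in WT_PBS 2, from 12 reads, against 0 to 1.07 CPM in the other 5. The Myl2 to Myl3 ratio was 1.449 in WT_PYR 3, against 1.122 to 1.237. The ratio of Mylk3 to Myl2 per kilobase was 0.0177 in WT_PYR 1, against 0.0377 to 0.0451, and 0.1045 in DTR_PBS 5, against 0.0586 to 0.0716. The ratio of Mylk3 to Myl3 was 0.06105 in DTR_PBS 5, against 0.0364 to 0.0413.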

How the results depend on the processing

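Across 33 alternatives (24 of them leaving out 1 library), Myl2 kept its direction in both injury contrasts, with log2 differences of -2.04 to -1.59 with PBS and -1.70 to -1.38 with pyridostigmine, and so did Myl3 and Mylk3. The Myl2 to Myl3 ratio with PBS stayed between -1.042 and -1.002, and with pyridostigmine it moved to -0.86 in U tags and -1.17 in V tags. Its drug difference in injured hearts was 0.10 without DTR_PYR 4, 5 and 6 (exact permutation p = 0.0238, the smallest that 3 against 6 libraries can give). It was -0.00458 in V tags and -0.0017 to 0.039 with 1 library left out. In uninjured hearts it was -0.0712 in U tags and -0.0479 to 0.0259 with 1 library left out.

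Small drug differences turned sign, all without a call. The Myl4 interaction was 0.008406 with no filter, 0.031 without DTR_PYR 4, 5 and 6 and -0.21 to 0.12 with 1 library left out. Myl7 in injured hearts was 0.88 without those 3 and -0.91 to 0.0499 with 1 left out, in uninjured hearts 0.0125 by voom and -0.89 to 0.42, and in the interaction 0.044 with no filter, 0.25 by DESeq2, 1.06 without those 3 and -0.72 to 0.68. The Myl9 interaction was -0.115 by total-count scaling, -0.111 by voom and -0.0704 to 0.14 with 1 left out. Mylk3 in uninjured hearts was 0.0169 by total-count scaling and -0.15 to 0.0655 with 1 left out, Myl2 there -0.0236 to 0.0971 and Myl3 -0.0568 to 0.0963. Apart from the drug differences, the injury difference of Cdc42bpb with PBS, called at -0.31 in the main fit, was 0.0305 by total-count scaling.

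Counts moved most with pyridostigmine. Of the list, 1 gene was called against WT_PYR and 3 with DESeq2 size factors, 7 with total-count scaling, 6 by DESeq2, 2 by voom, 9 with the tag letter, 13 without DTR_PYR 4, 5 and 6, and 1 to 9 with 1 library left out (highest without DTR_PYR 4). Of all genes, 1891 were called, and 1232 with no filter, 787 by voom, 1220 with the 2 groups alone, 2920 with the tag letter, 5027 without those 3, and 744 (without DTR_PYR 1) to 2699 (without DTR_PYR 4) with 1 left out. Between the injured groups, all genes called went from 0 to 239 by DESeq2, 1765 by voom and 0 to 2404 with 1 left out (2404 without DTR_PYR 2), and list genes from 0 to 1 by voom and 0 to 12. Between uninjured groups 1 gene was called by DESeq2 and 1 without those 3, and in the interaction 9 by DESeq2. The causes of these shifts were not tested.

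No paired analysis was possible because the labels give no shared replicate numbers and do not say whether animals with neighbouring tags are related. Depth limits Myl4 and Myl7, which had 1 to 62 and 0 to 27 reads per library.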
